A study of Homo sapiens with 12 samples.

Results

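The comparison described here set TFK1 cells that received radiation and nab-paclitaxel together against untreated TFK1 cells. TFK1 is an established human cholangiocarcinoma (bile duct cancer) cell line, labelled WT for genotype in every group, and nab-paclitaxel is paclitaxel bound to albumin. The combination group received 6 Gy and 1.62 ng/ml nab-paclitaxel, and the control group received neither. RNA of both groups was taken at 24 h. These are 6 of the 12 RNA-seq libraries in the study, 3 per group. The other 6 are 3 libraries with 6 Gy alone and 3 with 1.62 ng/ml nab-paclitaxel alone, also at 24 h, and they are used where the combination is set beside a single treatment. The study was set up to examine how the drug makes this line more sensitive to radiation. Genes were compared where FPKM (fragments per kilobase of gene, scaled to library size) averaged 1 or more over the 12 libraries, which kept 13609 of the 58735 genes in the table. A gene is said to have risen or fallen where the Benjamini-Hochberg adjusted p of limma's moderated test on log2(FPKM + 1) was below 0.05. Every log2 fold change below is combination minus control on that scale, followed by ± its standard error, unless another pair is named.

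The combination libraries held 16057485 to 17130596 fragments and the control libraries 14840283 to 15864937. Mitochondrial mRNA made up 9.81% to 12.9% of the fragments in the combination libraries and 11.2% to 13.6% in the control libraries, so the groups overlapped. Some libraries stood apart from their own group. Control 2 scored 30.6 on the second principal component, against 0.762 and -1.68 for the other control libraries. Combination 2 scored 3.64, against -15.4 and -14.03 for the other combination libraries, and nab-paclitaxel 1 scored 28.6, against -6.43 and 0.0947 in its group. Each gene list below is therefore also counted without control 2 and combination 2. The labels call the replicates biological and say nothing of separate cultures, so p-values measure the spread between these libraries. In bulk RNA a lower level can mean fewer cells of a kind or less RNA per cell, and these cannot be told apart.

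The line kept the simple keratins of biliary epithelium. KRT19, KRT8 and KRT18 averaged 234, 216 and 170.4 FPKM in the control libraries, and SOX9, a biliary transcription factor, averaged 66.97 FPKM. EPCAM, also on the list of biliary markers, averaged 105.8 FPKM in the control libraries. Most other biliary markers were low or absent. Of 16 cholangiocyte markers, 6 reached a mean of 1 FPKM, KRT7 averaged 0.422 FPKM in the controls, and TFF1 and TFF2 were at 0 in all 12 libraries. KRT8, KRT18, KRT19 and SOX9 rose with the combination. EPCAM (mean 105.8 FPKM in controls and 108.5 FPKM in the combination) and ONECUT2 (3.24 and 2.98 FPKM) did not pass. The summed level of the 16 markers was 677 to 860 FPKM in the control libraries and 1315 to 1670 FPKM in the combination libraries. Markers of other cell types were low, and few reached the level tested. Only 1 of 19 macrophage markers reached a mean of 1 FPKM (ITGAX, with C1QA, C1QB and C1QC at 0, summed level 2.61 to 3.29 FPKM in controls and 3.58 to 4.05 FPKM in the combination), 1 of 10 hepatocyte markers did (SERPINA1, with APOB at 0, 4.82 to 6.91 and 9.25 to 10.6 FPKM), and 3 of 15 fibroblast markers did (COL1A1, FBLN1 and ACTA2, with POSTN and PDPN at 0, 12.8 to 14.7 and 11.98 to 12.8 FPKM). ACTA2 rose from 0.964 to 3.05 FPKM and SERPINA1 from 4.97 to 8.71 FPKM, COL1A1 fell from 6.85 to 4.23 FPKM, and the part of these markers in the results below was not tested. None of 15 lymphocyte and endothelial markers reached it, and the highest, GNLY, averaged 0.369 FPKM.

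As background, ionising radiation breaks DNA. Broken DNA activates the p53 transcription factor, which switches on inhibitors of the cell cycle such as CDKN1A (p21) together with DNA repair and cell death genes. Paclitaxel binds beta-tubulin and freezes microtubules, so that cells entering mitosis cannot build a working spindle. DNA that reaches the cytosol can switch on interferon-stimulated genes, and cells that stop dividing lower the genes that the E2F factors drive for DNA replication.

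With the combined treatment, 3111 of 13609 genes (22.9%) changed. Of these, 1666 rose (12.2% of the genes tested) and 1445 fell (10.6%), and the median log2 fold change over all genes tested was 0.0036. Among the genes that changed, the groups did not overlap in 3060, and the median size of the change was 0.50 on the log2 scale. Genes picked by a small p tend not to overlap between 3 and 3 libraries, so the count of 3060 is no further support for the calls. Changes of at least 1 log2 unit were seen in 198 genes, 80 of them higher and 118 lower. Without control 2 and combination 2, 2702 genes changed, and without combination 3, 1964. With TPM scaling 1304 rose and 1434 fell, and with a minimum of 5 FPKM 1239 rose and 779 fell. When the 6 libraries were fitted alone without a block, 2089 genes changed, 1093 higher and 996 lower. When they were fitted alone with the replicate number as a block (the 6-library block below), 5114 changed, 2709 higher and 2405 lower. Of 34 gene lists, the highest medians belonged to histones, tubulins, senescence-linked secreted genes, p53 targets and interferon-stimulated genes, and the lowest to endoplasmic reticulum chaperones and amino acid supply genes. Every count against control within a list below can be read beside the 12.2% of all genes that rose and the 10.6% that fell.

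**Figure D1:**
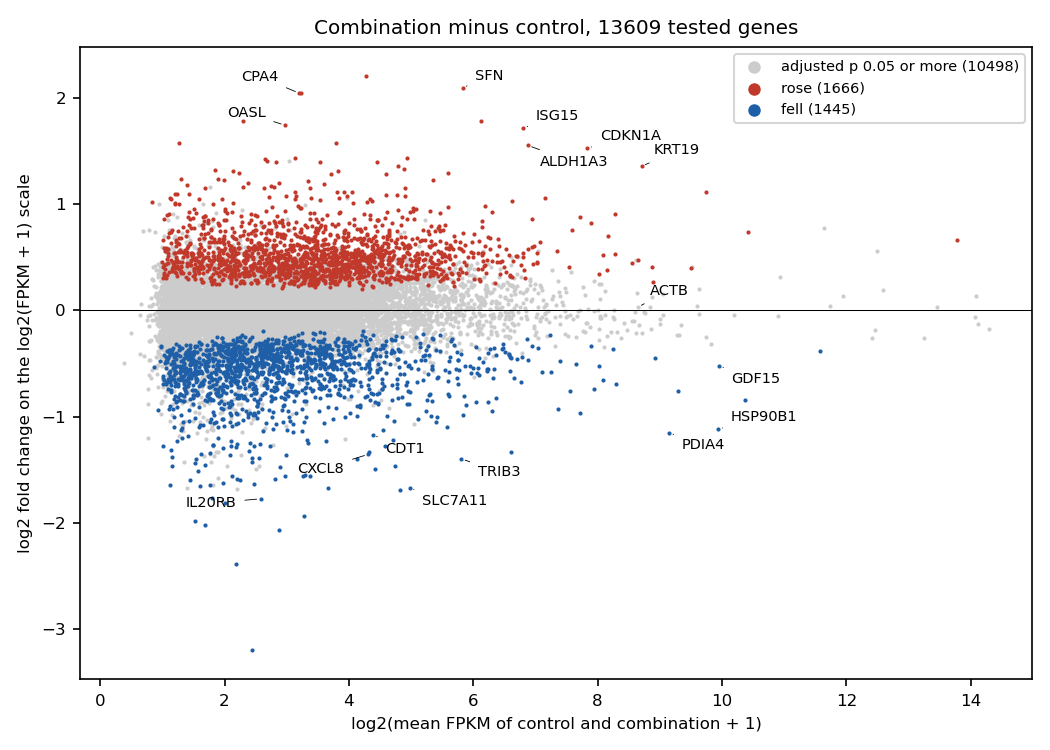
Log2 fold change between combination and control (vertical axis) against mean level (horizontal axis, log2 scale) for the 13609 genes tested, with each gene as a point. Genes that rose (1666) and fell (1445) are coloured, and the rest, grey, lie around 0.

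**Figure D2:**
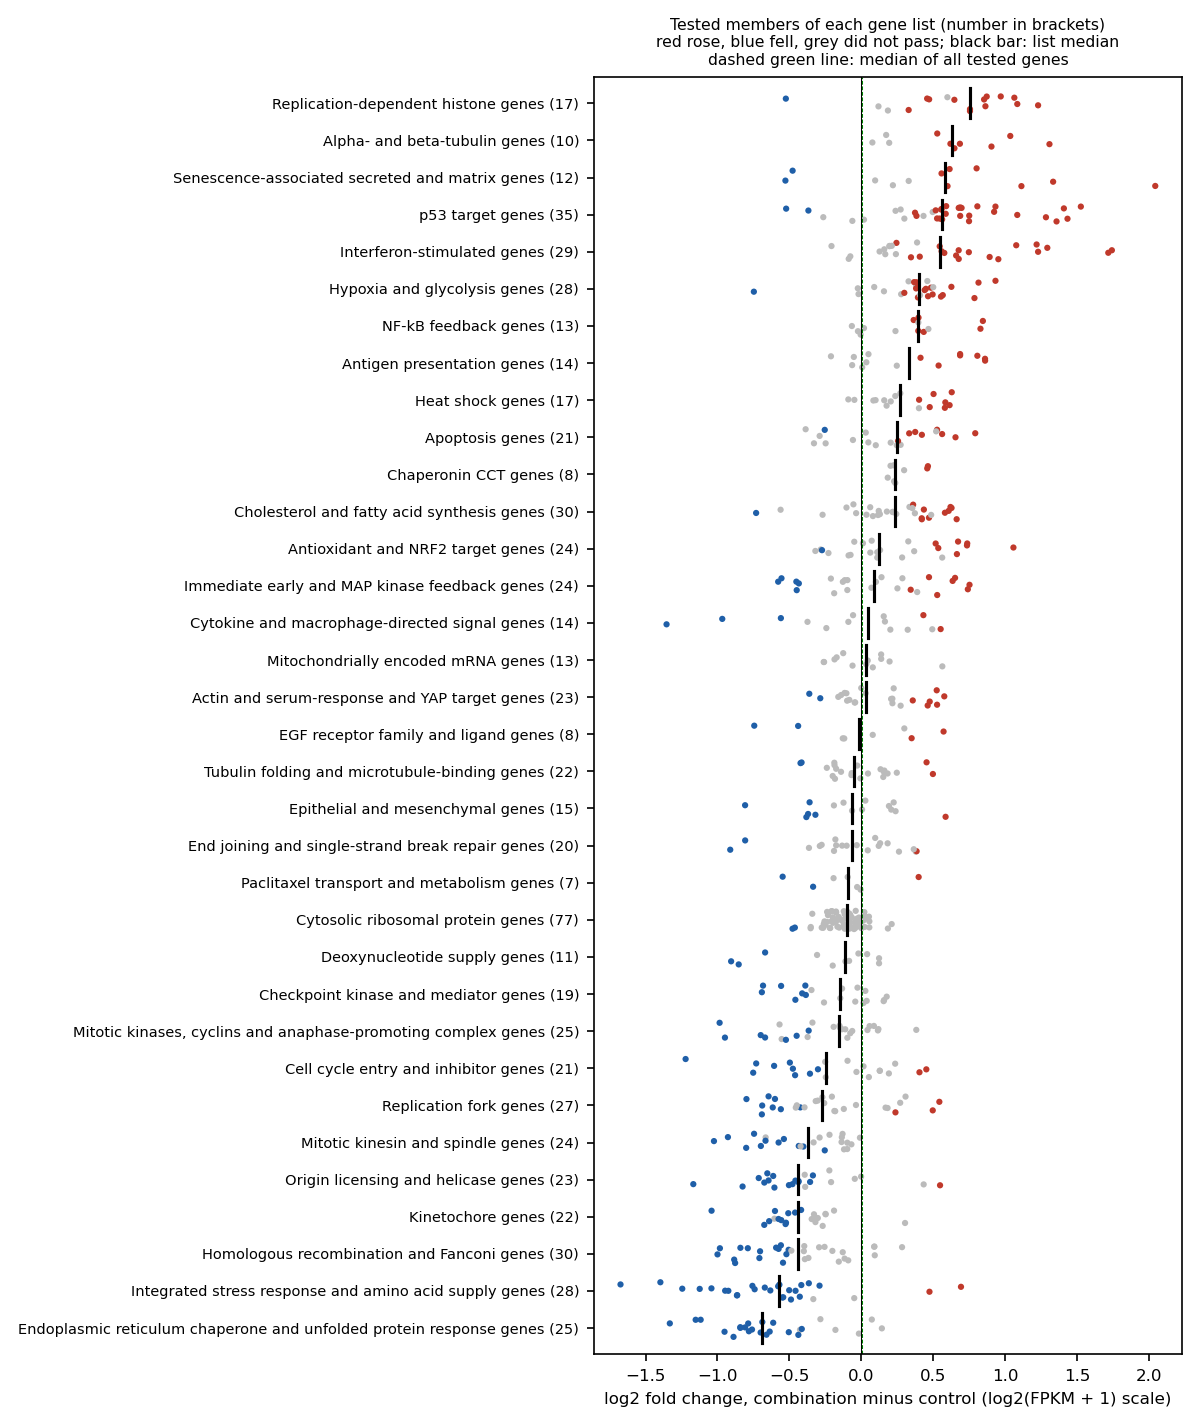
Log2 fold change between combination and control (horizontal axis) for every tested member of each gene list (rows), as points coloured by call, with the list median as a black bar and the median of all genes tested (0.0036) as a dashed line. Histones, tubulins, secreted and matrix genes, p53 targets and interferon-stimulated genes lie to the right, and endoplasmic reticulum and integrated stress response genes to the left.

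CDKN1A, the p21 inhibitor of cyclin-dependent kinases and the best known target of p53, lies at chr6:36676460-36687339, plus strand (hg38). It stood at 122, 108 and 119.8 FPKM in the control libraries and 341, 322 and 350.0 FPKM in the combination libraries. The lowest treated library was far above the highest control, and the log2 fold change was 1.53 ± 0.08 (limma, adjusted p 9.31e-07). The single treatments reached 199.8 ± 4.44 FPKM (SD, n = 3) with radiation and 196 ± 9.8 FPKM with the drug, so the combination mean of 338 ± 14.2 FPKM was above both. Against radiation the difference was 0.75 ± 0.08 (limma, adjusted p 0.000647) and against the drug 0.78 ± 0.08 (adjusted p 0.000732).

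Of 37 listed p53 target genes, 35 were tested. The combination raised 25 of them, lowered 2 and left 8 short of the threshold, a share of 71.4% higher beside 12.2% of all genes tested, with a list median of 0.56. Without control 2 and combination 2, 25 also rose. PLK2, a polo-like kinase that acts in stress checkpoints, stood at 15.1, 14.2 and 14.4 FPKM in the control libraries and 37.98, 39.8 and 38.8 FPKM in the combination libraries, with no overlap, and rose by 1.36 ± 0.07 (limma, adjusted p 1.66e-06). FDXR, a mitochondrial ferredoxin reductase, went from 15.8, 13.6 and 17.4 FPKM to 46.4, 38.96 and 45.8 FPKM (1.43 ± 0.10), again with no overlap. BTG2, an antiproliferative gene, rose by 1.28 ± 0.09 and PLK3 by 1.08 ± 0.08. The repair genes DDB2 (0.69), XPC (0.69) and POLH (0.81) rose, as did the phosphatase PPM1D (0.75), which switches p53 signalling off. Among death-related targets, TP53I3 (1.41), FAS (0.59), BAX (0.56), AEN (0.52) and PMAIP1 (0.53) rose, whereas BBC3 (PUMA) had 0.27 ± 0.17 (adjusted p 0.277).

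Not every p53 target rose. MDM2, the ubiquitin ligase that degrades p53, stood at 12.3, 16.6 and 12.6 FPKM in the control libraries and 12.01, 15.4 and 12.04 FPKM in the combination libraries. These values overlapped, and the log2 fold change was -0.06 ± 0.12 (limma, adjusted p 0.751), or 0.07 without control 2. GDF15, a secreted stress cytokine, was already very high in control cells, with 1186, 1019 and 1296 FPKM, and fell to 905, 696 and 839 FPKM, a log2 fold change of -0.52 ± 0.12 (adjusted p 0.00866). SESN2, a stress-induced regulator of mTORC1 that ATF4 also drives, fell as well (-0.37 ± 0.11, adjusted p 0.0269). Of the list, 1 gene fell in place of 2 without control 1, control 3, combination 1 or combination 2.

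Interferon-stimulated genes are the antiviral genes that type I interferon, or sensing of nucleic acid in the cytosol, switches on through STAT and IRF factors. Those factors bind the interferon-stimulated response element, whose core was searched here as GAAANNGAAA on both strands, N being any base. The 250 bases before the start of transcription of ISG15, HERC5 and IFIT1 (RefSeq, GRCh38.p14) are shown because, among genes of the list that rose and hold the core there, these had the smallest p-values. Bases in capitals are the matches, which can overlap one another.
ISG15 (chr1:1013247-1013496, plus strand): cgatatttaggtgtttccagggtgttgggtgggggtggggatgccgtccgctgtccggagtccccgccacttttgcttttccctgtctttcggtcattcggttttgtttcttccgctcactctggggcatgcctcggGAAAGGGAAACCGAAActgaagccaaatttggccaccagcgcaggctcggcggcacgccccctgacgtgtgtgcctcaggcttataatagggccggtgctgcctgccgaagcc
HERC5 (chr4:88456869-88457118, plus strand): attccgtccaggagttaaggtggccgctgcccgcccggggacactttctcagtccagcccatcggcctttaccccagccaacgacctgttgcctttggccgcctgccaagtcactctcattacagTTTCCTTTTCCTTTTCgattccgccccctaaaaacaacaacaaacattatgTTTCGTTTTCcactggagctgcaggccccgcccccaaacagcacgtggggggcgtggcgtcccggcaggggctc
IFIT1 (chr10:89392373-89392622, plus strand): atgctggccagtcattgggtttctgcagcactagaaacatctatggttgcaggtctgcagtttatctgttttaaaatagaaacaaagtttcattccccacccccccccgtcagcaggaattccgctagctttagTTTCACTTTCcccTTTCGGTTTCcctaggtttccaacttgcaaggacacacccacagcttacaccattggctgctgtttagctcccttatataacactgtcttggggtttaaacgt
Of the 29 interferon-stimulated genes tested, 23 had a promoter in the RefSeq table, and 14 of these (60.9%) held the core, beside 3.07% of all 27305 promoters in the table and 2.23% of the promoters of genes tested. Among the 15 matched genes that rose, 9 held it. A match describes the letters in this window and shows no binding.

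The combination raised 18 of the 29 interferon-stimulated genes tested (41 listed), lowered none and left 11 short of the threshold, with a median of 0.55 beside 0.0036 for all genes. Without control 2 and combination 2, 16 rose. OASL, a relative of the oligoadenylate synthetases that sense double-stranded RNA, stood at 2.77, 2.37 and 2.73 FPKM in the control libraries and 10.9, 11.5 and 10.9 FPKM in the combination libraries, with no overlap, and rose by 1.74 ± 0.08 (limma, adjusted p 3.27e-07). It averaged 5.09 FPKM with radiation and 5.12 FPKM with the drug, so the combination was above each (0.99 ± 0.08, adjusted p 0.000237, and 0.99 ± 0.08, adjusted p 0.000169). ISG15, a ubiquitin-like protein that is attached to other proteins, stood at 59.3, 41.9 and 52.9 FPKM in the control libraries and 190.0, 154 and 167 FPKM in the combination libraries. Here too every treated library was above every control, with a log2 fold change of 1.72 ± 0.15 (adjusted p 4.16e-05), and HERC5, the ligase that attaches ISG15, rose by 1.22 ± 0.12. IFIT2 (1.23 ± 0.09), IFIT1 (0.89 ± 0.10) and IFIT3 (0.95 ± 0.14), which bind foreign RNA, rose, and so did the membrane proteins IFITM2 (1.29 ± 0.10) and IFITM1 (1.08 ± 0.13). The RNA sensors IFIH1 (0.66) and DDX58 (0.68) and the factor IRF1 (0.56) rose less. The factors STAT2 (-0.09 ± 0.12, adjusted p 0.635) and IRF7 (0.20 ± 0.13, adjusted p 0.312) did not pass. The 12 listed genes with a mean below 1 FPKM were not tested, and the list median with no filter on low values was 0.24.

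Genes of antigen presentation moved the same way in part. Of 14 tested, 7 rose, none fell and 7 did not pass (median 0.33), and 5 rose without control 2 and combination 2. TAPBP (tapasin), which loads peptides onto MHC class I, went from 11.5, 9.42 and 12.4 FPKM to 21.05, 18.7 and 22.96 FPKM with no overlap (0.86 ± 0.12, limma, adjusted p 0.000789). The peptide transporter subunit TAP1 (0.86), the immunoproteasome subunit PSMB9 (0.81), B2M (0.69) and HLA-E (0.54) rose, while HLA-B (0.25 ± 0.11) and HLA-C (0.04 ± 0.13) did not pass. The interferon-stimulated core was present in the promoters of 5 of the 10 matched members. HLA genes are similar in sequence, and how shared fragments were assigned is not given in the sources used here.

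NF-kB feedback genes, which the inflammatory factor NF-kB induces and which hold it back, had 6 of 13 higher, none lower and 7 not past the threshold (median 0.40, 6 without control 2 and combination 2). NFKBIE (0.83 ± 0.10) and BIRC3 (0.85 ± 0.19) had the largest rises, and TNFAIP3 (0.40), NFKB2 (0.43), RELA (0.36) and BCL3 (0.40) rose by less. This count was 3 without combination 1 or with TPM scaling, and 2 without combination 3 or with only the groups compared. TNFAIP3 and NFKB2 lost their calls without combination 3, and NFKB2 also without combination 1. Of 14 cytokine and macrophage-directed signal genes tested (36 listed), 2 rose (14.3%, beside 12.2% of all genes), 3 fell (21.4%, beside 10.6%) and 9 did not pass, with a median of 0.05. Without control 2 and combination 2, 2 rose and 2 fell, and with the 6-library block 4 rose. CXCL8 (interleukin 8), a neutrophil attractant, stood at 24.4, 36.3 and 22.6 FPKM in the control libraries and 8.902, 11.1 and 10.2 FPKM in the combination libraries, with no overlap, and fell (log2 fold change -1.35 ± 0.22, limma, adjusted p 0.00145). CXCL1 fell by 0.97 and ANXA1, a regulator of inflammation, by 0.56. PTGES, which makes prostaglandin E2, rose (0.55 ± 0.11), as did CXCL16 (0.43 ± 0.10), which lost its call under TPM scaling. CD47, the signal that holds back macrophages, had -0.06 ± 0.16 (adjusted p 0.832), and CSF1, the macrophage growth factor, had 0.20 ± 0.10 (adjusted p 0.182).

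**Figure D3:**
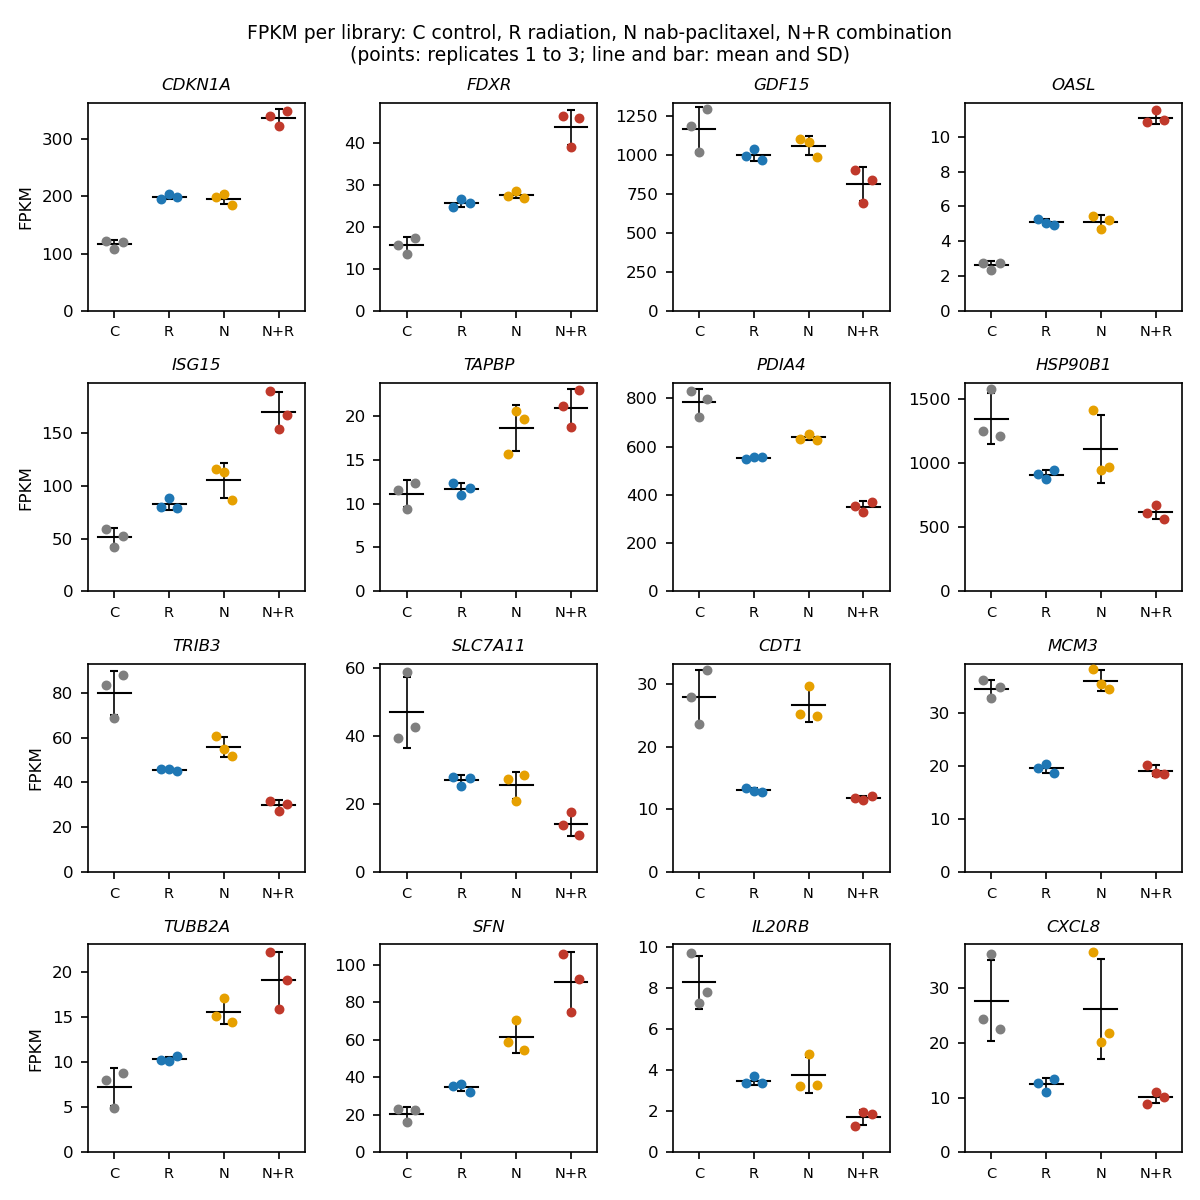
FPKM of 16 genes in each of the 12 libraries (points, linear vertical axes, 1 panel per gene). Libraries are grouped along the horizontal axis as control, radiation, nab-paclitaxel and combination, with a line at each group mean and a bar for the SD. CDKN1A, FDXR, OASL and ISG15 are highest in the 3 combination libraries, and PDIA4, HSP90B1, TRIB3 and SLC7A11 are lowest there.

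The lowest median of the 34 lists was that of the folding machinery of the endoplasmic reticulum. Unfolded protein there activates ATF6 and the IRE1-XBP1 branch, and both act on the endoplasmic reticulum stress element, searched here as CCAAT, any 9 bases, then CCACG, on both strands. The promoters of HSPA5, HSP90B1 and CANX are shown because, among genes of the list that fell and hold the element, these had the smallest p-values. Bases in capitals are the matches, again in the 250 bases before the RefSeq start (GRCh38.p14).
HSPA5 (chr9:125241344-125241593, minus strand): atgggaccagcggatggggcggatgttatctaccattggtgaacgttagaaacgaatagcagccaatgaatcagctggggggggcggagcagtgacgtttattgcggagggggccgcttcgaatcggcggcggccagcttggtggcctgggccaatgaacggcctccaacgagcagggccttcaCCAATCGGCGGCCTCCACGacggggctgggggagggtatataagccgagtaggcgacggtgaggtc
HSP90B1 (chr12:103930160-103930409, plus strand): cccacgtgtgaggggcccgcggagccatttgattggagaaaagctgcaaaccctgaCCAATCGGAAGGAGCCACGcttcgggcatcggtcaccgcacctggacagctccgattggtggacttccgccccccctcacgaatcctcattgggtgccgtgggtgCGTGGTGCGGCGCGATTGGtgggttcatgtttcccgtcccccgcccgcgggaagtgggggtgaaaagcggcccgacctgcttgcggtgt
CANX (chr5:179698679-179698928, plus strand): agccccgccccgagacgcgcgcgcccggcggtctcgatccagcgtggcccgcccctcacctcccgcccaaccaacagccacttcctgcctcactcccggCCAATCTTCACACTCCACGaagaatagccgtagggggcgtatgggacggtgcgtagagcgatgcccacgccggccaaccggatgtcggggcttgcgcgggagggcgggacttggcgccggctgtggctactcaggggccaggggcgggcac
The element was found in 6 of the 23 matched members of the list (26.1%), all 6 among the 18 matched members that fell, beside 0.0806% of all promoters and 0.158% of those of genes tested.

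Of 25 endoplasmic reticulum chaperone and unfolded protein response genes tested, none rose, 19 fell and 6 did not pass, a share of 76.0% lower beside 10.6% of all genes tested, and the median was -0.69. Without control 2 and combination 2, 18 fell. PDIA4, a disulfide isomerase, stood at 830.2, 722 and 796 FPKM in the control libraries and 353, 330.1 and 372 FPKM in the combination libraries. Every treated library was below every control, with a log2 fold change of -1.15 ± 0.08 (limma, adjusted p 1.21e-05). HSP90B1 (GRP94), the HSP90 of this compartment, went from 1253, 1575 and 1212 FPKM to 608, 677 and 568 FPKM without overlap (-1.12 ± 0.16, adjusted p 0.000662). HSPA5 (BiP), its main HSP70, went from 1655, 1808 and 1620.4 FPKM to 926, 974 and 935 FPKM (-0.84 ± 0.10, adjusted p 0.000359). HYOU1, which helps BiP release nucleotide, fell by 1.33 and the co-chaperones DNAJB11 and DNAJC3 by 0.84 and 0.89. The lectin chaperones CALR (-0.76) and CANX (-0.69), the degradation factors HERPUD1 (-0.95), SEL1L (-0.79), EDEM1 (-0.70) and SYVN1 (-0.50), and the factors ATF6 (-0.44) and XBP1 (-0.41) all fell. The sensors ERN1 (-0.18 ± 0.10) and EIF2AK3 (-0.02 ± 0.11) did not pass. XBP1 counts do not separate its spliced form, which is the active one.

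Genes of the integrated stress response, which ATF4 drives to supply amino acids, fell in most cases. Of 28 tested, 2 rose, 24 fell and 2 did not pass (median -0.57), and 23 fell without control 2 and combination 2. TRIB3, a pseudokinase that ATF4 and DDIT3 induce, stood at 83.6, 69.1 and 87.9 FPKM in the control libraries and 31.6, 27.1 and 30.5 FPKM in the combination libraries, with no overlap, and fell (log2 fold change -1.40 ± 0.10, limma, adjusted p 1.67e-05). SLC7A11, the cystine importer whose product feeds glutathione, went from 39.4, 58.9 and 42.6 FPKM to 13.8, 17.7 and 10.7 FPKM (-1.67 ± 0.18, adjusted p 0.00019). Its partner chain SLC3A2 fell too (-0.86). Enzymes that make amino acids fell, among them ASNS for asparagine (-1.24 ± 0.12), PHGDH (-1.12 ± 0.15) and PSAT1 (-0.76 ± 0.11) for serine, and PCK2 (-1.04 ± 0.10). The aminoacyl-tRNA synthetases WARS (-0.67), GARS (-0.55), AARS (-0.58), MARS (-0.43), SARS (-0.42) and CARS (-0.29) fell by smaller amounts. ATF4 itself fell (-0.50 ± 0.11, adjusted p 0.00653), as did DDIT3 (CHOP, -0.86 ± 0.12), a death-promoting factor. ATF3 (0.69 ± 0.07), which is also a target of p53 and stress kinases, and ALDH18A1 (0.47 ± 0.08), an enzyme of proline synthesis, rose.

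Origin licensing genes load the replication helicase onto DNA. E2F factors act through sites searched here as TTTGGCGC, TTTCGCGC, TTTCCCGC or TTTGCCGC on both strands. MCM3 and CDT1 are shown because, among genes of the licensing list that passed the threshold and hold a site, they had the 2 smallest p-values. Matches are in capitals (250 bases before the RefSeq start, GRCh38.p14).
MCM3 (chr6:52284743-52284992, minus strand): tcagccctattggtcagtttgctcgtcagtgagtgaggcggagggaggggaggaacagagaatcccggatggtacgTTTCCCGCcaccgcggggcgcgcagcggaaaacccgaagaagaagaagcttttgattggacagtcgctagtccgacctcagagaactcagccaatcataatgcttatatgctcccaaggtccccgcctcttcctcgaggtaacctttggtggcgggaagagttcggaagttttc
CDT1 (chr16:88803539-88803788, plus strand): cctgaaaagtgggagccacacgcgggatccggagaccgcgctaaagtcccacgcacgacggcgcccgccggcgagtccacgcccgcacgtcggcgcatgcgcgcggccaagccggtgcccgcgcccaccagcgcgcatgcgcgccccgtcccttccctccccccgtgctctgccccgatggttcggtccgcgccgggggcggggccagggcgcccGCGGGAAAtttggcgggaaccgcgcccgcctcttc
A site was present in 6 of 20 matched licensing genes (30%) and in 6 of 23 matched replication fork genes (26.1%), beside 2.79% of all promoters and 4.54% of those of genes tested. Of the 13 matched licensing genes that fell, 4 held one, and so did the 1 matched licensing gene that rose. Among matched replication fork genes, 2 of 7 that fell and 1 of 3 that rose held one.

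Of 23 origin licensing and helicase genes tested, 1 rose, 15 fell and 7 did not pass (median -0.44), and 14 fell without control 2 and combination 2. CDT1, which brings the MCM helicase to origins, stood at 28.04, 23.6 and 32.3 FPKM in the control libraries and 11.8, 11.4 and 12.2 FPKM in the combination libraries, with no overlap, and fell (log2 fold change -1.17 ± 0.11, limma, adjusted p 7.90e-05). MCM3, a helicase subunit, went from 36.1, 32.8 and 34.7 FPKM to 20.2, 18.6 and 18.4 FPKM (-0.83 ± 0.08, adjusted p 7.66e-05). CDC6 (-0.60), ORC1 (-0.67), MCM10 (-0.71), CDC45 (-0.65), MCM7 (-0.64), MCM2 (-0.61), MCM4 (-0.36) and MCM5 (-0.44) fell, whereas MCM6 had -0.00 ± 0.09 (adjusted p 0.994) and ORC3 rose (0.55 ± 0.17). No gene of the list rose without control 2 and combination 2, without any 1 of control 1, control 3, combination 2, combination 3, radiation 1 and radiation 2, or with the replicate block over 12 libraries. Radiation alone brought CDT1 to 13.1 ± 0.364 FPKM (SD, n = 3) and MCM3 to 19.5 ± 0.846 FPKM, while with the drug alone they were at 26.7 ± 2.72 and 36.05 ± 1.95 FPKM. Against the drug the combination was lower for 14 of the 23 genes (60.9%, beside 2.7% of all genes). Against radiation none was lower (beside 2.95%) and 1, MCM6, was higher (4.35%, beside 4.81%).

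Of 27 replication fork genes tested, 3 rose (11.1%, beside 12.2% of all genes), 8 fell (29.6%, beside 10.6%) and 16 did not pass (median -0.27). Leaving out control 2 and combination 2, 2 rose and 6 fell. With the 6-library block 5 rose and 16 fell, and 1 rose without combination 3 and 6 without nab-paclitaxel 1. The polymerase subunits POLE (-0.80 ± 0.13), POLE2 (-0.62 ± 0.10) and POLA1 (-0.56 ± 0.07), the flap nuclease FEN1 (-0.64 ± 0.12) and the fork protection factors CLSPN (-0.69 ± 0.12) and TIMELESS (-0.69 ± 0.13) fell. PCNA, the sliding clamp and also a p53 target, rose from 89.4, 101 and 79.9 FPKM to 128, 134 and 131 FPKM (0.54 ± 0.13, adjusted p 0.0101), and PRIM2 and POLD4 rose by 0.24 and 0.50. Of 11 deoxynucleotide supply genes, 3 fell and 8 did not pass (median -0.11). Among them were RRM2 (-0.90 ± 0.16), the S-phase subunit of ribonucleotide reductase, and TK1 (-0.67 ± 0.11), and 3 also fell without control 2 and combination 2.

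Genes of cell cycle entry and its inhibitors, counted as 1 list, fell in part. Of 21 tested, 2 rose (9.52%, beside 12.2% of all genes), 9 fell (42.9%, beside 10.6%) and 10 did not pass (median -0.25), and 7 fell without control 2 and combination 2. E2F1, the factor that drives replication genes, stood at 13.02, 12.2 and 13.9 FPKM in the control libraries and 5.65, 4.93 and 4.54 FPKM in the combination libraries, with no overlap, and fell (log2 fold change -1.22 ± 0.11, limma, adjusted p 5.25e-05). E2F2 (-0.75), E2F7 (-0.50), E2F8 (-0.61) and RBL1 (p107, -0.73) fell. The inhibitors CDKN2A (-0.48 ± 0.14), CDKN2B (-0.46 ± 0.08) and CDKN1B (-0.30 ± 0.09) fell too, in contrast to CDKN1A. The cyclins CCND1 (0.40 ± 0.07) and CCNE1 (0.45 ± 0.09) rose.

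Genes of mitosis fell in part. Of 25 mitotic kinase, cyclin and anaphase-promoting complex genes, none rose, 7 fell and 18 did not pass (median -0.15), with 6 lower without control 2 and combination 2 and 11 with the 6-library block. FOXM1 (-0.99 ± 0.13) and MYBL2 (-0.95 ± 0.16), factors that drive late cell cycle genes, had the largest falls, and AURKB (-0.70 ± 0.16), ESPL1 (-0.67 ± 0.11, separase), BIRC5 (-0.52 ± 0.09, survivin) and BUB1B (-0.45 ± 0.08) fell. Cyclin B1 did not pass. CCNB1 stood at 17.1, 22.5 and 16.96 FPKM in the control libraries and 17.1, 18.6 and 17.4 FPKM in the combination libraries, an overlap, with -0.08 ± 0.16 (limma, adjusted p 0.768). CDC20, which starts anaphase, had 0.12 ± 0.08 (adjusted p 0.307), and CDK1 had -0.57 ± 0.22 (adjusted p 0.0801). For these genes the single treatments lay on either side of the control. CCNB1 averaged 10.2 FPKM with radiation, 18.9 in controls and 31.6 with the drug, and CDC20 averaged 12.8, 22.03 and 37.8 FPKM. Of the 25 genes, 10 were higher with the combination than with radiation (40%, beside 4.81% of all genes). Against the drug 15 were lower (60%, beside 2.7% of all genes).

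Among 22 kinetochore genes, none rose, 11 fell (50%, beside 10.6% of all genes) and 11 did not pass (median -0.44). CENPF (-1.04 ± 0.11, limma, adjusted p 0.000145), CENPE (-0.67 ± 0.15) and NDC80 (-0.64 ± 0.14) fell. This count was 8 without control 2 and combination 2, 7 without control 1 or combination 1, and 17 with the 6-library block. Among 24 mitotic kinesin and spindle genes, none rose, 11 fell and 13 did not pass (median -0.37, 10 lower without control 2 and combination 2). KIF14 (-1.02 ± 0.15), KIF18B (-0.93 ± 0.16), KIF11 (-0.70 ± 0.12, the motor that pushes spindle poles apart) and ASPM (-0.80 ± 0.15) fell, and KIF20A had -0.01 ± 0.11 (adjusted p 0.96).

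Tubulin genes, which encode the target of the drug, rose in most cases. Of 10 alpha- and beta-tubulin genes tested (15 listed), 7 rose, none fell and 3 did not pass (median 0.63), and 7 rose without control 2 and combination 2. TUBB2A stood at 7.997, 4.902 and 8.85 FPKM in the control libraries and 22.2, 15.9 and 19.2 FPKM in the combination libraries, with no overlap, and rose by 1.31 ± 0.17 (limma, adjusted p 0.000497). TUBA4A went from 6.51, 6.71 and 6.601 FPKM to 14.2, 14.97 and 14.6 FPKM (1.04 ± 0.11, adjusted p 0.000132). TUBB4A (0.91), TUBA1A (0.69), TUBB4B (0.65), TUBA1C (0.62) and TUBB6 (0.53) rose, and the most abundant beta-tubulin, TUBB, had 0.19 ± 0.07 (adjusted p 0.0659). Against radiation 7 of the 10 were higher (70%, beside 4.81% of all genes). Against the drug none was higher (beside 1.21%) and 2 were lower (20%, beside 2.7%), TUBB (-0.45 ± 0.07) and TUBA1B (-0.61 ± 0.11). Tubulin genes have near-identical coding sequences and pseudogenes, so the split among them is uncertain.

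Of 22 tubulin folding and microtubule-binding genes, 2 rose and 2 fell (9.09% each way, beside 12.2% and 10.6% of all genes) and 18 did not pass (median -0.05), with the same counts without control 2 and combination 2. KATNA1 (katanin, 0.45 ± 0.08) and STMN3 (0.50 ± 0.09) rose, and the microtubule binders MAP2 (-0.42 ± 0.09) and MAP1B (-0.42 ± 0.11) fell, MAP1B with a call that was lost without control 2, combination 1 or combination 3. Of 8 subunits of the CCT chaperonin, which folds tubulin and actin, CCT8 (0.46 ± 0.13) and CCT4 (0.46 ± 0.14) rose and 6 did not pass (median 0.23), and 2 rose without control 2 and combination 2. None rose without control 3, combination 1 or combination 3, and 5 rose with the 6-library block. Cytosolic heat shock genes rose in 7 of 17, with none lower and 10 not past the threshold (median 0.27, 6 higher without control 2 and combination 2). DNAJB1 (0.58 ± 0.07), BAG3 (0.63 ± 0.09) and HSP90AB1 (0.40 ± 0.08) rose, which set the cytosolic HSP90 apart in direction from its endoplasmic reticulum relative HSP90B1. HSPA1B rose (0.58 ± 0.12) and HSPA1A had 0.40 ± 0.22 (adjusted p 0.215), but these are near-identical copies and the split between them is uncertain.

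Homologous recombination genes fell in part. Of 30 homologous recombination and Fanconi genes tested (33 listed), none rose, 14 fell and 16 did not pass (median -0.44), and 15 fell and 1 rose without control 2 and combination 2. BRCA1, which directs repair to homologous recombination, stood at 4.46, 4.97 and 4.67 FPKM in the control libraries and 1.74, 2.29 and 1.65 FPKM in the combination libraries, with no overlap, and fell (log2 fold change -0.98 ± 0.10, limma, adjusted p 0.000148). BRCA2, which acts in the strand exchange step of that repair, went from 2.48, 3.27 and 2.27 FPKM to 0.866, 1.18 and 0.897 FPKM (-0.88 ± 0.12, adjusted p 0.000662). FANCA (-0.79 ± 0.09), FANCD2 (-0.52 ± 0.09), XRCC2 (-0.88 ± 0.13), RAD51AP1 (-1.0 ± 0.22), BRIP1 (-0.84 ± 0.15), BLM (-0.59 ± 0.11) and NBN (-0.70 ± 0.15) fell. Of 20 end joining and single-strand break repair genes, 1 rose (5%, beside 12.2% of all genes), 2 fell (10%, beside 10.6%) and 17 did not pass (median -0.07). Leaving out control 2 and combination 2, 1 rose and 4 fell. Without control 2 alone 2 rose and 4 fell, 2 rose without combination 2, and 4 rose without nab-paclitaxel 1 or with the 6-library block. POLQ, the polymerase of microhomology-mediated joining, fell (-0.91 ± 0.12, adjusted p 0.00051), as did RIF1 (-0.81 ± 0.14), while XRCC6 (Ku70) rose (0.38 ± 0.08). PRKDC, the catalytic subunit of DNA-dependent protein kinase, had -0.03 ± 0.12 and PARP1 0.26 ± 0.09 (adjusted p 0.0648).

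Of 19 checkpoint kinase and mediator genes, none rose, 7 fell (36.8%, beside 10.6% of all genes) and 12 did not pass (median -0.15). Without control 2 and combination 2, 5 fell, and 3 without control 3, combination 1 or combination 3. RAD9A, a subunit of the 9-1-1 clamp, fell (log2 fold change -0.68 ± 0.09, limma, adjusted p 0.000373), and TOPBP1 (-0.56 ± 0.14), CDC25A (-0.41 ± 0.10), H2AFX (-0.39 ± 0.10), MDC1 (-0.39 ± 0.12) and WEE1 (-0.46 ± 0.15) fell. The kinases ATM (-0.35 ± 0.12, adjusted p 0.0554), ATR (-0.15 ± 0.14), CHEK1 (-0.26 ± 0.13) and CHEK2 (0.16 ± 0.08) did not pass. The call of TOPBP1 was lost without combination 1 or combination 3, and that of CDC25A without control 3.

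Histone messages rose in most cases among those tested. Most replication-dependent histone genes make messages without a poly(A) tail, and here 17 of 57 listed reached the level tested. Of these, 13 rose, 1 fell and 3 did not pass (median 0.76, or 0.19 with no filter on low values), and 10 rose without control 2 and combination 2. HIST1H2BD stood at 25.9, 21.2 and 23.2 FPKM in the control libraries and 59.3, 54.99 and 54.2 FPKM in the combination libraries, with no overlap, and rose by 1.23 ± 0.09 (limma, adjusted p 1.45e-05). HIST2H2BE (1.06 ± 0.10), HIST1H2AC (1.08 ± 0.14) and HIST1H1C (0.97 ± 0.12), the linker histone H1.2, rose, and HIST1H3E fell (-0.52 ± 0.11). With radiation alone HIST1H2BD averaged 52.6 FPKM and with the drug 33.7 FPKM. The library kit is named in the labels as an mRNA kit, and histone genes are similar to each other, so how fragments were shared among them is uncertain.

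The largest rises among all genes included several that belong to none of the lists. SFN (14-3-3 sigma), which holds cyclin-dependent kinases in the cytoplasm and is induced by p53, lies at chr1:26863138-26864457, plus strand and stood at 23.1, 16.2 and 22.6 FPKM in the control libraries and 106, 74.9 and 92.3 FPKM in the combination libraries. The groups did not overlap, and the log2 fold change was 2.09 ± 0.16 (limma, adjusted p 1.95e-05). CYP24A1, which breaks down active vitamin D, went from 29.2, 32.9 and 29.4 FPKM to 101, 112 and 109 FPKM (1.78 ± 0.08, adjusted p 3.27e-07). ALDH1A3, which makes retinoic acid, went from 60.4, 59.8 and 56.1 FPKM to 174, 176 and 173 FPKM (1.55 ± 0.07, adjusted p 3.27e-07). In both genes each single treatment lay between control and combination, with means of 59.8 and 64.4 FPKM for CYP24A1 and 93.96 and 115 FPKM for ALDH1A3. The secreted carboxypeptidase CPA4 rose from 3.14, 2.27 and 2.41 FPKM to 14.6, 13.4 and 13.4 FPKM (2.04 ± 0.10), a level that radiation alone also reached (13.1 ± 0.4198 FPKM, SD, n = 3). KRTAP2-3, a keratin-associated protein, had the largest rise (2.21 ± 0.13), but it and KRTAP2-4 (1.78 ± 0.18) are close copies. The arrestin family gene ARRDC3 rose by 1.43 ± 0.11 and SPDYC, of a family that activates cyclin-dependent kinases, by 1.44 ± 0.19.

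SMN1, needed to assemble splicing ribonucleoproteins, stood at 6.77, 5.87 and 5.32 FPKM in controls, 5.36, 5.22 and 6.65 FPKM with radiation, 10.5, 7.34 and 6.89 FPKM with the drug and 22.6, 16.9 and 20.1 FPKM with the combination. The combination libraries were above the other 9, and the log2 fold change against control was 1.57 ± 0.16 (limma, adjusted p 0.000106). SMN1 and SMN2 are near-identical copies, so a shift of fragments between them cannot be told apart from a change in level.

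Short noncoding genes held 12 of the 15 places among the largest falls. Because these rest on few fragments, protein-coding genes were also ranked, a choice made after the values were seen. IL20RB, a chain of the receptors for interleukins 19, 20 and 24, lies at chr3:136946230-137011085, plus strand and stood at 9.72, 7.29 and 7.81 FPKM in the control libraries and 1.303, 1.99 and 1.86 FPKM in the combination libraries. Every treated library was below every control, and the log2 fold change was -1.77 ± 0.15 (limma, adjusted p 3.37e-05). SEMA3A, a secreted guidance factor, went from 25.96, 38.2 and 27.5 FPKM to 9.79, 11.8 and 8.802 FPKM (-1.49 ± 0.16, adjusted p 0.000175), near the 11.9 ± 0.592 FPKM (SD, n = 3) of radiation alone. PTPDC1, a phosphatase, fell from 14.03, 15.3 and 14.2 FPKM to 4.38, 4.41 and 3.94 FPKM (-1.56 ± 0.08). SLPI, a secreted protease inhibitor (-1.56 ± 0.20), AMH, a TGF-beta family hormone (-1.56 ± 0.14), and PABPC1L (-1.46 ± 0.12) also fell.

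Secreted and matrix genes linked to senescence rose in 7 of the 12 tested (24 listed), with 2 lower and 3 not past the threshold (median 0.58, or 0.14 with no filter), and 7 rose without control 2 and combination 2. ANGPTL4, a secreted inhibitor of lipoprotein lipase, had the largest rise of the list (2.04 ± 0.18). PLAU, the urokinase protease, went from 17.02, 15.03 and 15.6 FPKM to 30.6, 25.7 and 29.1 FPKM with no overlap (0.80 ± 0.10, limma, adjusted p 0.000304). Its receptor PLAUR (0.61 ± 0.12), IGFBP6 (1.11 ± 0.19), TIMP1 (0.56 ± 0.11) and TIMP2 (0.60 ± 0.07) rose, and LMNB1, a nuclear lamina gene that falls in senescent cells, fell (-0.48 ± 0.08). HMGA2 fell as well (-0.53 ± 0.12). The 12 members with a mean below 1 FPKM were not tested. The secreted genes CXCL8 and CXCL1, which fell, are not on this list. They were counted above with the cytokine and macrophage-directed genes, of which 2 rose and 3 fell.

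Genes of hypoxia and glycolysis rose in 17 of 28, with 1 lower and 10 not past the threshold (median 0.40). LDHA, which makes lactate, went from 48.9, 56.2 and 47.1 FPKM to 83.5, 92.6 and 88.4 FPKM (0.79 ± 0.11, limma, adjusted p 0.000818). ALDOC (0.93 ± 0.12), ADM (0.81 ± 0.10) and NDRG1 (0.63 ± 0.10) rose, and HK2 fell (-0.75 ± 0.08) while HK1 rose (0.57 ± 0.12). GAPDH, often used as a reference gene, rose (0.45 ± 0.11, adjusted p 0.0113), and ACTB, another, had 0.03 ± 0.08 (adjusted p 0.829), or -0.01 with quantile normalization. GAPDH lost its call without combination 3. The count of 17 was 16 without control 2 and combination 2 and 10 without combination 3. Of 30 cholesterol and fatty acid synthesis genes, 10 rose, 1 fell and 19 missed the threshold (median 0.23), and 10 also rose without control 2 and combination 2, but 5 without control 3, combination 1 or combination 3 and 6 without control 1. Without nab-paclitaxel 1 or combination 2, 2 of the list fell, and with the 6-library block 3. FDFT1, which makes squalene, rose (0.66 ± 0.08, adjusted p 0.000295), with HMGCS1 (0.47 ± 0.11), while the lipogenic factor SREBF1 fell (-0.73 ± 0.09).

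Of 24 antioxidant and NRF2 target genes, 7 rose (29.2%, beside 12.2% of all genes), 1 fell (4.17%, beside 10.6%) and 16 missed the threshold (median 0.12). Without control 2 and combination 2, 8 rose, and with the 6-library block 11. The glutathione peroxidases GPX1 (1.06 ± 0.14, limma, adjusted p 0.00053) and GPX4 (0.52 ± 0.11), catalase CAT (0.66 ± 0.08), SOD1 (0.67 ± 0.12) and ferritin light chain FTL (0.73 ± 0.10) rose. The classical NRF2 target NQO1 fell (-0.27 ± 0.09, adjusted p 0.0458). This was the only fall of the list, and none fell with the replicate block over 12 libraries, with no filter, or without any 1 of the control, radiation or combination libraries. GCLM (0.11 ± 0.17) and TXNRD1 (-0.07 ± 0.07) did not pass. Of 21 apoptosis genes, 8 rose (38.1%, beside 12.2% of all genes), 1 fell (4.76%, beside 10.6%) and 12 did not pass (median 0.25). The count of rises was 8 without control 2 and combination 2, 5 without control 1, control 3 or combination 1, and 4 without combination 3. The single fall was lost without control 1, control 3, combination 2 or combination 3, and 4 fell without control 2 or with the 6-library block. The pore-forming BAK1 (0.79 ± 0.08) and the activators BIK (0.65 ± 0.12) and BID (0.37 ± 0.09) rose, and so did the survival protein MCL1 (0.33 ± 0.08). The call of BID was lost without combination 3. BCL2L1 (BCL-XL) had -0.39 ± 0.16 (adjusted p 0.0978).

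Signalling and structural genes were mixed. Of 24 immediate early and MAP kinase feedback genes, 7 rose (29.2%, beside 12.2% of all genes), 5 fell (20.8%, beside 10.6%) and 12 did not pass (median 0.09). Without control 2 and combination 2, 6 were higher and 5 lower. DUSP4 (0.64 ± 0.08), FOSL1 (0.75 ± 0.11), FOS (0.74 ± 0.12) and JUN (0.53 ± 0.14) rose, and DUSP6 (-0.45 ± 0.07), SPRY4 (-0.43 ± 0.08) and IER3 (-0.45 ± 0.09) fell. Of 8 EGF receptor family and ligand genes, HBEGF (0.57 ± 0.08) and TGFA (0.35 ± 0.07) rose, EREG (-0.74 ± 0.16) and AREG (-0.44 ± 0.12) fell and 4 did not pass (median -0.02, with 2 higher and 1 lower without control 2 and combination 2). The share of 25% each way stands beside 12.2% and 10.6% of all genes. Of 23 actin, serum-response and YAP target genes, 6 rose (26.1%, beside 12.2% of all genes), 2 fell (8.7%, beside 10.6%) and 15 missed the threshold (median 0.03). TPM4 (0.53 ± 0.06), CTGF (0.52 ± 0.11) and CYR61 (0.46 ± 0.11) were among those that rose. Counts were 4 higher and 1 lower without control 2 and combination 2, and 3 higher without control 1, combination 1 or combination 3. Of the list, 1 gene fell in place of 2 without control 1, control 3, combination 1 or combination 2. The calls of AREG and CYR61 were lost without combination 1 or combination 3, and that of AREG also without control 1 or control 2. Of 15 epithelial and mesenchymal genes, SNAI1 rose (0.59 ± 0.11), 5 fell, among them CDH1 (E-cadherin, -0.38 ± 0.07) and the splicing regulator ESRP1 (-0.81 ± 0.11), and 9 did not pass (median -0.06). These shares, 6.67% higher and 33.3% lower, stand beside 12.2% and 10.6% of all genes. The counts were the same without control 2 and combination 2, but 3 fell without control 3 or combination 1, and 3 rose without nab-paclitaxel 1 or with the 6-library block.

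Of 7 paclitaxel transport and metabolism genes, ABCC3 (-0.55 ± 0.11) and ABCC2 (-0.34 ± 0.07) fell, CAV1 rose (0.40 ± 0.10) and 4 did not pass (median -0.09). These shares, 28.6% lower and 14.3% higher, stand beside 10.6% and 12.2% of all genes. The counts were the same without control 2 and combination 2. The call of CAV1 was lost without control 1, control 3, combination 2 or combination 3. The paclitaxel pump ABCB1 had -0.09 ± 0.11 (limma, adjusted p 0.566), and SPARC, an albumin-binding matrix protein, had -0.00 ± 0.07 (adjusted p 0.97). Of 77 cytosolic ribosomal protein genes, RPL22 (-0.46 ± 0.09) and RPL10 (-0.48 ± 0.11) fell (2.6%, beside 10.6% of all genes) and 75 did not pass (median -0.10). With quantile normalization or the 6-library block 11 fell, and without nab-paclitaxel 1, 9 fell. RPL10 lost its call without control 2 and combination 2. None of 13 mitochondrially encoded mRNAs passed (median 0.03), nor without control 2 and combination 2, although 1 rose without control 2, nab-paclitaxel 1 or combination 1, with MT-CO1 at -0.17 ± 0.14 and MT-CO3 at -0.13 ± 0.11.

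The combination was also set against each single treatment in the same fit. Against radiation, 1055 genes changed (7.75%), 654 higher (4.81%) and 401 lower (2.95%), and against the drug 533 changed (3.92%), 165 higher (1.21%) and 368 lower (2.7%). These comparisons share the combination libraries, so their values are given side by side and are not independent. With the replicate number as a block the counts were 606 and 306. The count against radiation was 1723 without control 2 and combination 2, 1879 without nab-paclitaxel 1 and 218 without combination 3. The count against the drug was 562 without control 2 and combination 2, and 177 without combination 3.

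Member counts against the 2 single treatments are given side by side, and their differences were not tested. Interferon-stimulated genes, with 15 of 29 above radiation and 3 above the drug, and tubulins, with 7 of 10 above radiation and none above the drug, can be read beside the 4.81% and 1.21% of all genes tested. Licensing genes, with none below radiation and 14 of 23 below the drug, and homologous recombination genes, with none below radiation and 11 of 30 below the drug, can be read beside 2.95% and 2.7% of all genes. The p53 targets (7 of 35 above radiation and 12 above the drug) and endoplasmic reticulum genes (9 of 25 below radiation and 16 below the drug) had calls against both. PDIA4 was -0.65 ± 0.08 against radiation and -0.86 ± 0.08 against the drug (limma, adjusted p 0.00176 and 0.000647). CXCL8 was -0.28 ± 0.22 against radiation (adjusted p 0.451) and -1.26 ± 0.22 against the drug (adjusted p 0.00971).

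The genes furthest from each single treatment were partly those named above. Against radiation, SFN was higher by 1.35 ± 0.16 (limma, adjusted p 0.00119), ANGPTL4 by 1.23 ± 0.18, SMN1 by 1.62 ± 0.16 and the arrestin family gene ARRDC4 by 1.28 ± 0.12. Among changes of at least 1 log2 unit against radiation, 6 were higher and 36 lower, and the falls named by the same rule were short RNA genes and a pseudogene, among them RNU6-1191P, with 18 fragments over the radiation libraries and 1 over the combination libraries, and PDIA3P2 (-2.09 ± 0.44), a copy of part of PDIA3. Against the drug, CPA4 was higher by 1.38 ± 0.10 (adjusted p 0.000151), TCTEX1D4, a dynein light chain family gene, by 1.41 ± 0.22 and the galectin LGALS7B by 1.35 ± 0.15, the last with a near-identical copy. The largest falls against the drug were in CXCL8, CXCL1 (-1.25 ± 0.15), RRM2 (-1.14 ± 0.16), E2F1 (-1.13 ± 0.11) and CDT1 (-1.11 ± 0.11). RRM2 stood at 23.4, 16.6 and 15.97 FPKM with the drug, 7.08, 8.58 and 7.798 FPKM with the combination and 6.95, 6.72 and 7.29 FPKM with radiation. The combination libraries of RRM2 lay below every drug library. PINCR, a p53-induced long noncoding RNA, rose with the combination (1.29 ± 0.10) and was 0.12 ± 0.10 against radiation and 1.40 ± 0.10 against the drug.

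**Figure D4:**
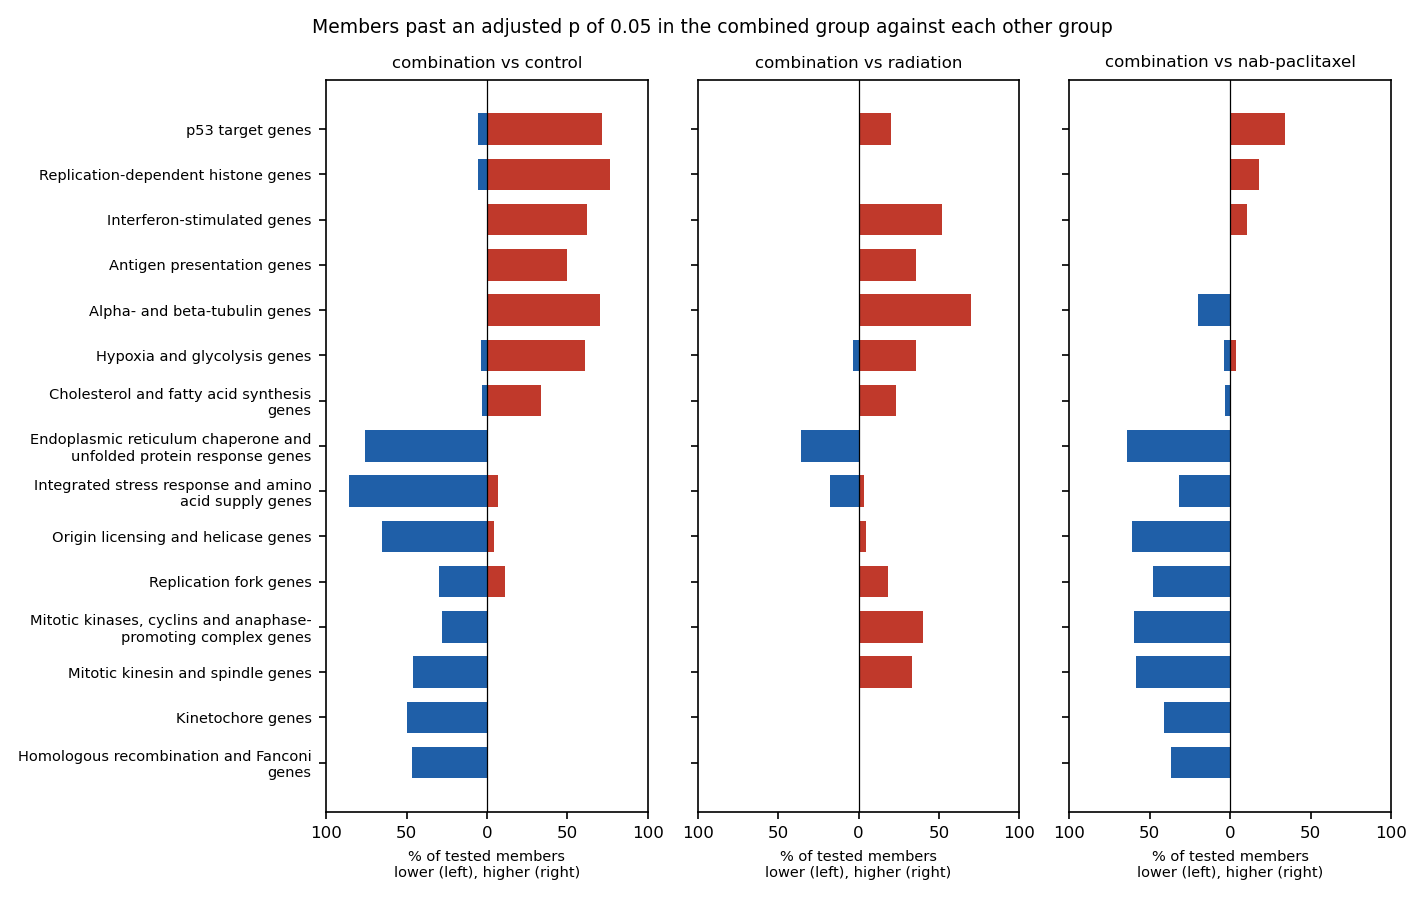
Percentage of tested members past the threshold in selected gene lists (rows), for the combination against control, against radiation and against nab-paclitaxel (1 panel per comparison). Bars to the right give members that were higher, and bars to the left members that were lower. Licensing genes were lower in 65.2%, 0% and 60.9%, and tubulin genes higher in 70%, 70% and 0%. The comparisons share the combination libraries.

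Whether the combined change differed from the sum of the single changes on the log2 scale was tested as an interaction. No gene passed with limma (0 of 13609, or 0%), 443 had an unadjusted p below 0.05, and voom on recovered fragments gave 0 as well. For CDKN1A the interaction was 0.01 ± 0.11 (adjusted p 1.00), for OASL 0.23 ± 0.11, for ISG15 0.01 ± 0.21, for TRIB3 -0.10 ± 0.14 and for CDT1 -0.08 ± 0.15. PDIA4 had -0.36 ± 0.11 (unadjusted p 0.00814, adjusted p 1.00), and SMN1 had 1.23 ± 0.22 (unadjusted p 0.00014, adjusted p 0.989). With no filter on low values 5 genes passed (1 higher and 4 lower), all with group means of at most 0.448 FPKM. A p above the threshold does not show that the changes add.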

How the data were processed

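RNA-seq (an mRNA kit on total RNA, per the labels) was analysed for 12 libraries of TFK1 cells in 4 groups of 3, grouped by the labelled treatment. The authors deposited a table of FPKM per gene for 58735 genes, and 0 of its sample columns went unused. The submitters' processing notes name hg38 as the build. What aligned and counted the reads, with which gene model and strand setting, is not given in the sources used here. Dividing FPKM by the value of a single fragment gave whole fragments within 0.05 for 100% of values, which supplied the library depths of 14840283 to 17992242 fragments. No 2 libraries of a group agreed within counting noise.

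Genes with mean FPKM of 1 or more (13609) were compared on the log2(FPKM + 1) scale by limma 3.58.1 (R 4.3.3), using all 12 libraries, 4 group means, a mean-variance trend and Benjamini-Hochberg adjustment per comparison. Such fold changes understate changes of low genes. Tables were made with Python 3.11.15 and pandas 2.3.3, and the fit was tested on simulated data. The comparison, the 34 gene lists, the 5 marker lists and the tests were chosen with earlier results of these data known. Named genes were the 15 largest rises and 15 largest falls whose libraries did not overlap and whose higher mean reached 2 FPKM, up to 4 genes per list with the smallest p among those that passed (the 2 of highest mean FPKM where none passed), the 5 largest each way against each single treatment, and CDKN1A, MDM2, GDF15, ACTB and GAPDH. Other members of the lists, and the ranking of protein-coding falls, were named after their values were seen. Deviations from the group mean in same-numbered control and combination libraries correlated with r = 0.233, 0.543 and 0.172. The main fit did not pair the libraries, and the replicate number entered only the alternatives with a block. The labels tie the numbers to no batch, and control 3 correlated more with combination 1 (0.289). Alternatives changed the pseudocount (0.1), the filter (none, or 5 FPKM), scaling (quantile, TPM, size factors), the libraries fitted, the block, the trend, the gene set (protein-coding only) and the model (voom on recovered fragments). Promoters were the 250 bases before the start in the RefSeq table of GRCh38.p14, where 9520 of 13550 tested symbols matched. Some genes of the lists are counted but not reported here by name.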

Additional observations from a re-analysis of the deposited data

How the results depend on the processing

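The number of genes changed between combination and control was 3111. It was 2018 with a minimum of 5 FPKM (fewer genes tested). With only the groups compared it was 2089 without a block and 5114 with a replicate block, and 2660 with the block over 12 libraries. Without control 2, combination 2 and nab-paclitaxel 1 it was 5049. With 1 library left out it was 1964 (without combination 3) to 3926 (without nab-paclitaxel 1). Against radiation (1055) it was 577 with no filter, 2502 with only the groups compared, 606 with the replicate block, 1723 without control 2 and combination 2, 4128 without those and nab-paclitaxel 1, and 218 (without combination 3) to 1879 (without nab-paclitaxel 1) with 1 library left out. Against nab-paclitaxel (533) it was 276 with no filter, 93 with only the groups compared, 306 with the replicate block, 1301 without control 2, combination 2 and nab-paclitaxel 1, and 177 (without combination 3) to 734 (without control 2) with 1 library left out. The interaction gave 5 genes with no filter and 0 under every other setting run. Apart from the filters, which change the genes tested, the cause of these moves was not tested. The share of changed genes that were higher against radiation, 62.0% here, was 77.02% with a minimum of 5 FPKM, 50.9% with size factors, 52.1% with quantile normalization and 53.8% with TPM scaling, and against nab-paclitaxel it went from 31.0% to 41.8% with quantile normalization. Of the 164 genes named by rule, none reversed in a call under any setting run. Other list members in the text, NQO1 among them, are outside this count. Of 164 named genes, 21 lost their call somewhere: 14 did without combination 3, 11 without combination 1 and 11 with no filter, among them MIR25 (13 settings), MIR3164 (12), CCT4 (10), MIR324 (7), AREG, CCT8 and RF00019 (6 each), NFKB2 (5), and CAV1, MAP1B, SNORD53B and TOPBP1 (4 each). GDF15 lost its call only with no filter, and the replicate block took the call from 3 named genes. Precision is limited by 3 libraries per group, and depth limits genes near 1 FPKM and short genes most.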

Other observations

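Outside protein-coding genes, the balance of rises and falls differed by class. Over all genes tested 12.2% rose and 10.6% fell. Of 11227 protein-coding genes, 1534 rose (13.7%) and 1142 fell (10.2%). Of 404 lincRNAs, 46 rose (11.4%) and 58 fell (14.4%), and of 492 antisense genes 35 rose (7.11%) and 63 fell (12.8%). Of 455 processed pseudogenes, 14 rose (3.08%) and 41 fell (9.01%), and of 116 sense-intronic genes 4 rose (3.45%) and 18 fell (15.5%). Antisense and intronic genes overlap other genes, and the strand used in counting is not given in the sources used here, so their fragments cannot be told apart from those of the partner gene. PINCR, a lincRNA that p53 induces, stood at 1.63, 1.87 and 1.66 FPKM in the control libraries and 5.33, 5.76 and 5.87 FPKM in the combination libraries, with no overlap (1.29 ± 0.10, limma, adjusted p 2.12e-05). It averaged 5.15 FPKM with radiation and 1.53 FPKM with nab-paclitaxel.

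Genes for short RNAs (miRNA, snoRNA, snRNA, misc_RNA and related classes) seldom rose. Of 370 tested, 2 rose (0.541%) and 39 fell (10.5%), with a median log2 fold change of -0.41. Among the other 13239 genes 1664 rose (12.6%) and 1406 fell (10.6%), so the share that fell was similar, and the median was 0.0084. Their FPKM rest on few fragments, because the genes are short. MIR616, which lies inside DDIT3, had 189 fragments over the 3 control libraries and 62 over the 3 combination libraries. MIR421, inside FTX, had 73 and 21, MIR25, inside MCM7, 19 and 5, SNORA75, inside NCL, 26 and 5, and MIR324, which overlaps ACADVL, 14 and 2. The host genes DDIT3 (-0.86 ± 0.12) and MCM7 (-0.64 ± 0.10) fell too. RNU1-138P had 108 and 26 fragments, RF00157, inside MIR31HG, 31 and 0, and MIR3164 9 and 0. SNORA59A, inside VPS13D, went the other way, with 1 and 21 fragments. Fragments of a host transcript and of the short gene within it cannot be told apart in this table.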
